A study of Mus musculus with 13 samples.

Results

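Embryonic and neonatal isoforms of the muscle sarcomere were examined in *mdm* mice through 5 genes of the 17924 in the deposited count tables. They are Myh3 and Myh8, which encode the embryonic and the neonatal myosin heavy chain, Myl4, the embryonic and atrial essential myosin light chain, Actc1, cardiac alpha actin, and Tnnt2, cardiac troponin T. They were chosen as a group by gene symbol, and all 5 passed the filter on low counts, as did 17069 genes in all. Muscular dystrophy with myositis (*mdm*) is a recessive disease of mice on the B6C3Fe a/a-Ttn*mdm*/J background, in which a rearrangement of the titin gene removes part of the N2A-PEVK region, the elastic stretch of the protein. Bulk RNA-Seq was carried out on whole muscles of *mdm* mice: 5 libraries of extensor digitorum longus (EDL), a fast hindlimb muscle, 5 of psoas, a fast trunk muscle, and 3 of soleus, a slow hindlimb muscle. The EDL mice were 38 days old except for replicate 3 (42 days). In psoas, replicate 1 came from a mouse of 29 days, replicate 3 from one of 42 days and the others from mice of 38 days. The soleus mice were 33, 36 and 38 days old. The labels also give each library a code from T1 to T6, without stating its meaning, and give no sex. Animals are not named in the labels, some mice gave more than 1 muscle, and wild-type muscle was not analysed here, so every comparison below is between muscles that all carry the *mdm* mutation.

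Skeletal muscle replaces its sarcomere proteins during development. Embryonic fibres contain Myh3, fetal and newborn fibres contain Myh8 in addition, and both give way after birth to the adult heavy chains of fast (Myh1, Myh2, Myh4) and slow (Myh7) fibres, while Myl4, Actc1 and Tnnt2 are replaced by Myl1, Acta1 and the skeletal troponins Tnnt1 and Tnnt3. The same developmental isoforms return when fibres regenerate after injury, and Actc1, Myl4 and Tnnt2 are also made by heart muscle.

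The 13 libraries held between 9114176 and 48835209 counts. The smallest was soleus replicate 3 and the largest EDL replicate 1. Raw counts of the 5 genes ranged from 278 (Tnnt2 in EDL) to 404548 (Myh3 in soleus), so that counting error was small beside the differences between libraries. The muscle labels matched marker genes of slow fibres: the summed normalized counts of 6 slow-fibre genes were between 281341 and 337973 in soleus and at most 44944 in EDL and 43703 in psoas. The 6 fast-fibre genes summed to at least 598652 in EDL, between 89401 and 238641 in psoas, and at most 73974 in soleus. Every library was rich in skeletal muscle transcripts, with at least 313963 normalized counts over 8 marker genes such as Ckm and Acta1. Their sum was lower in psoas (313963 to 683896) and soleus (495019 to 704326) than in EDL (at least 790345), without overlap. By the calling rule given below, Ckm (log2 fold change -1.67) and Mylpf (-1.60) were lower in psoas than in EDL, beside 2.5% of all genes tested. Tnnc2 (-3.73) was lower in soleus than in EDL, beside 0.445% of all genes tested, and none of the 8 was called higher in either. These calls were lost in some fits with 1 library left out. Normalized counts are raw counts divided by the authors' size factor of each library.

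The genes lie on 3 chromosomes of the mouse genome (build GRCm38). Myh3 (ENSMUSG00000020908) is at chr11:67078300-67102291 and Myh8 (ENSMUSG00000055775) at chr11:67277124-67308634, both on the plus strand and in the same cluster of myosin genes. Myl4 (ENSMUSG00000061086) is at chr11:104550663-104595753 (plus), Actc1 (ENSMUSG00000068614) at chr2:114047282-114053548 (minus) and Tnnt2 (ENSMUSG00000026414) at chr1:135836354-135852260 (plus). The 250 bases upstream of the RefSeq start (GRCm38.p6) are shown for 4 of the genes, and the window of Myl4 is described below. Windows were searched on both strands for the E-box CANNTG, which MyoD-family factors bind, the MCAT motif CATTCC of TEAD factors, the CArG box of serum response factor and the MEF2 site. Matches are in capitals, and none overlaps another. Tnnt2 has 2 RefSeq starts, of which the upstream one is shown, and the Actc1 window takes in 12 bases of an exon annotated for Actc1.
Myh3, chr11:67078050-67078299, plus strand: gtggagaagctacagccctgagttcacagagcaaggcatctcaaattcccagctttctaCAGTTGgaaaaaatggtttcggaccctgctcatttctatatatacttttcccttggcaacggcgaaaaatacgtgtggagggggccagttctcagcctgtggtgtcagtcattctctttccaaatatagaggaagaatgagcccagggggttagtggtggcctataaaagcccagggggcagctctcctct
Myh8, chr11:67276874-67277123, plus strand: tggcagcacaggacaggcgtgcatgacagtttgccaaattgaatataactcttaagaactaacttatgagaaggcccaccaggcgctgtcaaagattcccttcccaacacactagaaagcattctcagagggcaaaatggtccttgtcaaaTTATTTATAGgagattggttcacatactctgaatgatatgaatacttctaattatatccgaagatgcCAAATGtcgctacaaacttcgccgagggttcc
Actc1, chr2:114052876-114053125, minus strand: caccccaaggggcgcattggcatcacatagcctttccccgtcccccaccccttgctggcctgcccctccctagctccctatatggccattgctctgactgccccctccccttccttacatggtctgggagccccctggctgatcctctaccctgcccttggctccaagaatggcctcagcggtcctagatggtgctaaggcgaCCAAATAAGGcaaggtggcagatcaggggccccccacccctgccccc
Tnnt2, chr1:135836084-135836333, plus strand: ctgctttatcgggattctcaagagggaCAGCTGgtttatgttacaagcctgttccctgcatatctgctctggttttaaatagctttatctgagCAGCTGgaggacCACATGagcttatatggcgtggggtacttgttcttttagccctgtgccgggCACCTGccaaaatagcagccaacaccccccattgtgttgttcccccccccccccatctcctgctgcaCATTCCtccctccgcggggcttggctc

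The Myh3 window held 1 E-box, 191 bases before the start. The Myh8 window held 1 E-box at 32 bases and 1 MEF2 site at 99 bases before the start, and the Actc1 window 1 CArG box at 47 bases. The Tnnt2 window held 4 E-boxes, at 223, 157, 145 and 94 bases, of which the first pair read CAGCTG, and 1 MCAT motif at 27 bases. Of all 32851 promoter windows of this length, 66.2% held an E-box and 12.2% at least 3. The form CAGCTG was in 13% of windows at least 1 time and in 1.26% at least 2 times. An MCAT motif was in 12.6%, a CArG box in 1.47% and a MEF2 site in 2.92%. The window of Myl4 held none of these motifs and overlapped an exon of the neighbouring gene Cdc27 over 143 bases. These are matches of letters only, and no binding was measured.

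Myh3, the embryonic heavy chain, was high in soleus, intermediate in psoas and lowest in EDL. Its normalized counts in EDL replicates 1 to 5 were 36382, 17629, 10524, 14604 and 33438. In psoas they were 86941, 69385, 46069, 25703 and 33417, and in soleus 167407, 111947 and 50001. All 3 soleus libraries lay above all 5 EDL libraries, whereas psoas overlapped with both other muscles. The means were 22516 ± 11639 in EDL (SD, n = 5), 52303 ± 25469 in psoas (SD, n = 5) and 109785 ± 58733 in soleus (SD, n = 3). In bulk RNA, a larger number of fibres with the transcript and more transcript per fibre cannot be told apart, here and for the other genes.

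A gene was called when its Benjamini-Hochberg adjusted p, over all 17069 genes, was under 0.01 and its log2 fold change exceeded 1 in size, and by this measure Myh3 was called in no comparison. Against EDL, its log2 fold change was 2.30 (SE 0.50) in soleus, with an adjusted p of 0.0199 by edgeR's quasi-likelihood test, and 1.22 (SE 0.44) in psoas, with an adjusted p of 0.0688. Between soleus and psoas the log2 fold change was 1.08 with an adjusted p of 0.383 (edgeR). DESeq2's Wald test gave an adjusted p of 0.000161 for soleus against EDL, and the edgeR fit with age as a covariate gave 0.067. Groups as separate as Myh3 in soleus and EDL were not rare, since the lowest soleus library was above the highest EDL library for 5.33% of all genes tested.

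Myh8, the neonatal heavy chain, followed another order and was lowest in soleus. In EDL its normalized counts were 27980, 26261, 30661, 17651 and 22197. In psoas they were 52631, 40515, 42117, 44352 and 26027. The soleus libraries had 7403, 7111 and 6260. Soleus lay below both other muscles without overlap and its libraries were close to each other (mean 6925 ± 594, SD, n = 3), while EDL (24950 ± 5108, SD, n = 5) and psoas (41129 ± 9645, SD, n = 5) overlapped through psoas replicate 5.

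Myh8 was called lower in soleus against EDL, with a log2 fold change of -1.85 (SE 0.29) and an adjusted p of 0.00446 by edgeR's quasi-likelihood test, and lower in soleus against psoas, with -2.56 (SE 0.30) and 0.00163. It was the single gene called lower in soleus against psoas, where 0.00586% of the genes tested were called in that direction and 12 genes were called higher. In soleus against EDL, 0.445% were called lower. Separation without overlap was more common: in soleus against EDL 11% of the genes tested had it and 5.72% were lower, and in soleus against psoas 10.2% had it, of the genes tested 5.19% lower and 4.97% higher. In psoas against EDL the Myh8 log2 fold change was 0.72 with an adjusted p of 0.0454 (edgeR).

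The Myh8 calls rested on few libraries. Against EDL the call was lost without EDL replicate 3 and without any 1 of the soleus libraries, with adjusted p between 0.0104 and 0.0308 (edgeR) and log2 fold changes still between -1.89 and -1.76. Against psoas it was lost without any 1 soleus library (adjusted p between 0.0175 and 0.023, edgeR) and when only these muscles were fitted (0.011). Myh8 also shares sequence with its neighbours: 12.9% of the 75-base words of its longest transcript occur in other genes, mostly Myh2, Myh1 and Myh4, against 1.86% for Myh3 and none for Myl4, Actc1 and Tnnt2. How reads that fit several of these genes were counted is not given in the sources used here, and the part of shared reads in the Myh8 values was not tested.

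Within a library, the ratio of Myh3 to Myh8 counts does not depend on the scaling between libraries. It was 1.30, 0.671, 0.343, 0.827 and 1.51 in EDL replicates 1 to 5. In psoas it was 1.65, 1.71, 1.09, 0.58 and 1.28. In soleus it was 22.6, 15.7 and 7.99, above every EDL and psoas library. Myh3 thus made up between 88.9% and 95.8% of the summed counts of both genes in soleus, and between 25.6% and 63.1% in the 10 libraries of the fast muscles.

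**Figure D1:**
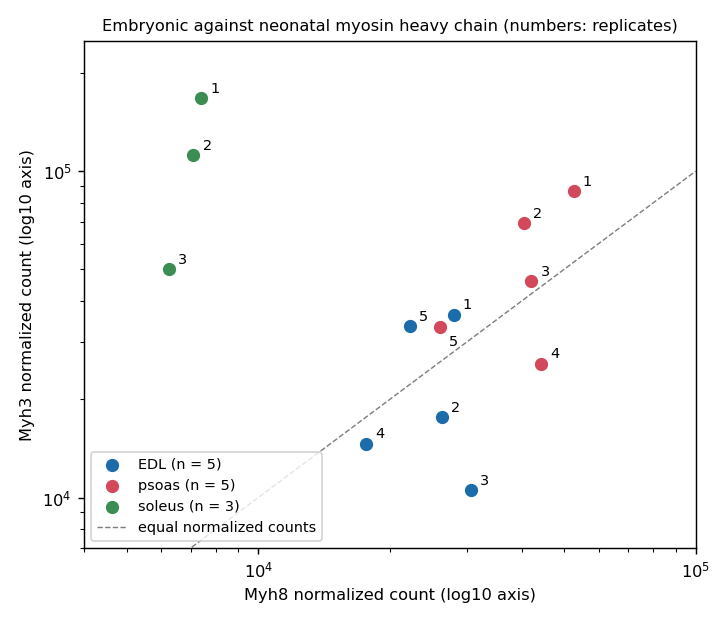
Normalized counts of Myh3 (y axis) against Myh8 (x axis), both on log10 axes, in 5 EDL, 5 psoas and 3 soleus libraries of *mdm* mice, with replicate numbers beside the points and a dashed line where both counts are equal. The soleus libraries stand far above the line, with Myh3 to Myh8 ratios between 7.99 and 22.6, and the EDL and psoas libraries lie on both sides of it.

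Myl4, the embryonic essential light chain, was highest in psoas. Its normalized counts were 1210, 2583, 1863, 2130 and 3521 in EDL. In psoas they were 3465, 7250, 6924, 5044 and 4401, and in soleus 2487, 2105 and 2201. Psoas lay above EDL except that psoas replicate 1 was just below EDL replicate 5, and psoas lay above soleus without overlap. Soleus fell inside the EDL range, with nearly equal means of 2264 ± 199 (SD, n = 3) and 2261 ± 862 (SD, n = 5).

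Myl4 was the only one of the 5 genes called in psoas against EDL, higher with a log2 fold change of 1.26 (SE 0.28) and an adjusted p of 0.0092 (edgeR's quasi-likelihood test). In this comparison 4.93% of the genes tested were called (841 genes), with 2.43% called higher and 2.5% lower in psoas. The Myl4 value stood close to the threshold: leaving out 1 library kept the call only for EDL replicate 5 or psoas replicate 1 (adjusted p between 0.00739 and 0.0275 over the 13 fits, edgeR), and it was lost with age as a covariate (0.0108) and with only these muscles fitted (0.0185). With the replicate number as a block, its adjusted p was 0.00662 (edgeR), and 1267 genes were called in all. This block pairs EDL and psoas libraries by number, although those of replicate 1 came from mice of different ages. Between soleus and psoas the Myl4 log2 fold change was -1.25 with an adjusted p of 0.13, and between soleus and EDL it was 0.01 with an adjusted p of 0.995 (edgeR).

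Actc1, cardiac alpha actin and the main striated actin of fetal skeletal muscle, varied widely within psoas. It had normalized counts of 2563, 5769, 3502, 4592 and 3575 in EDL. The psoas counts were 2385, 10965, 8342, 15678 and 7055, and the soleus counts 1700, 3194 and 1274. Psoas replicate 1, the youngest mouse at 29 days, fell below all EDL libraries, while the other 4 psoas libraries were above all EDL and all soleus libraries. The means were 4000 ± 1222 in EDL (SD, n = 5), 8885 ± 4908 in psoas (SD, n = 5) and 2056 ± 1008 in soleus (SD, n = 3).

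No Actc1 difference was called by edgeR's quasi-likelihood test. The log2 fold change was 1.15 (SE 0.41) in psoas against EDL, with an adjusted p of 0.0655, and -0.95 in soleus against EDL, with 0.383. In soleus against psoas it was -2.10, a mean level 0.233 times that of psoas, with an adjusted p of 0.096, whereas DESeq2's Wald test gave 0.000838. Leaving out 1 library at a time kept the soleus to psoas log2 fold change between -2.57 and -1.81.

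Tnnt2, cardiac troponin T, which is made for a time in embryonic skeletal muscle, was the least abundant of the 5. Its normalized counts were 1108, 722, 553, 1034 and 1397 in EDL. In psoas they were 2257, 2530, 2103, 1852 and 1109. Soleus had 2938, 1525 and 588, which covers nearly the whole range of both other muscles. The log2 fold change was 1.04 (SE 0.37) in psoas against EDL with an adjusted p of 0.0641, 0.82 in soleus against EDL with 0.38, and -0.22 in soleus against psoas with 0.848, all by edgeR and none called. The soleus values went down with age (33, 36 and 38 days), as they did for Myh3, but there was 1 library at each age.

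**Figure D2:**
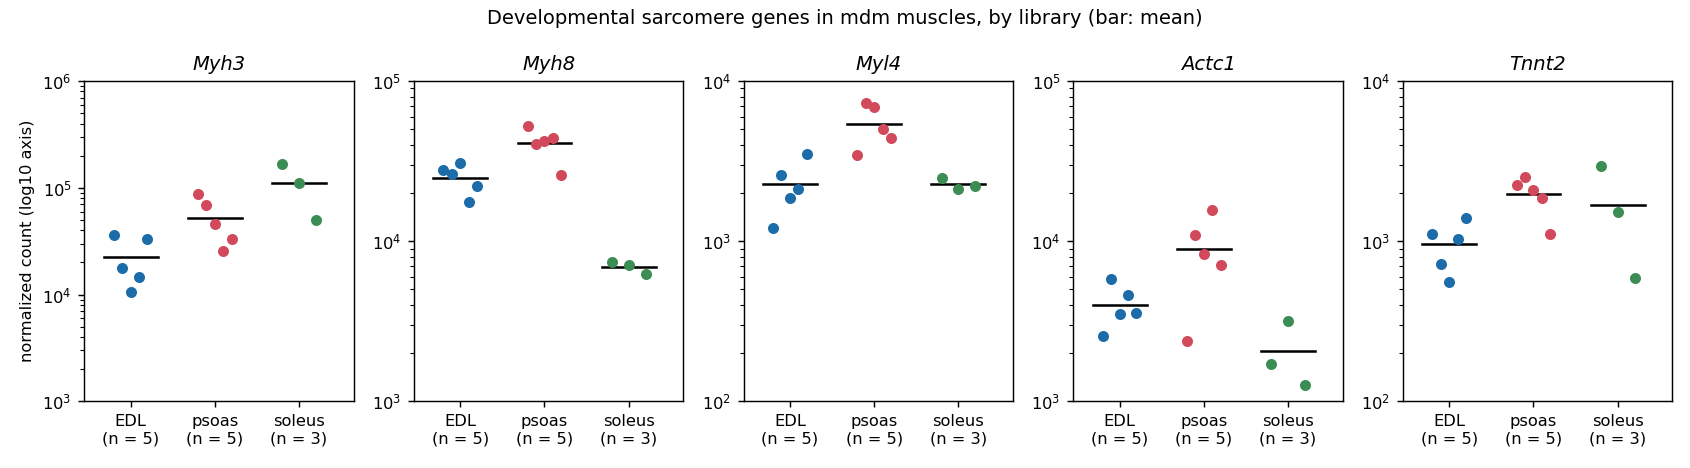
Normalized counts (log10 axis) of Myh3, Myh8, Myl4, Actc1 and Tnnt2 in each library of *mdm* EDL, psoas and soleus, with points in replicate order and a bar at the mean. Myh3 is highest on average in soleus, Myh8 is lowest in soleus without overlap, and Myl4 and Actc1 have their highest values in psoas.

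Taking the 5 genes side by side, all had a log2 fold change above 0 in psoas against EDL, with a median of 1.15, against a median of 0.02 over all genes tested. No gene of the 5 separated these muscles without overlap, which 13% of genes did, 6.48% with psoas higher and 6.56% with psoas lower. In soleus against EDL, 3 were above 0 and 2 below, with a median of 0.01, and 1 of 5 was called, lower, where 0.445% of genes were called lower, 0.533% higher and 0.978% in all. Without overlap, Myh3 was higher and Myh8 lower, beside 5.33% and 5.72% of all genes in these directions. In soleus against psoas, 1 was above 0 and 4 below, with a median of -1.25, and 1 of 5 was called where 0.0762% of genes were. Myh8 and Myl4 were lower without overlap there, 2 of 5 genes, where 5.19% of all genes tested were. The comparisons share libraries, so that these values are not independent of each other, and Myh3, Myl4 and Actc1 are among the genes that the study itself listed from these samples.

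**Figure D3:**
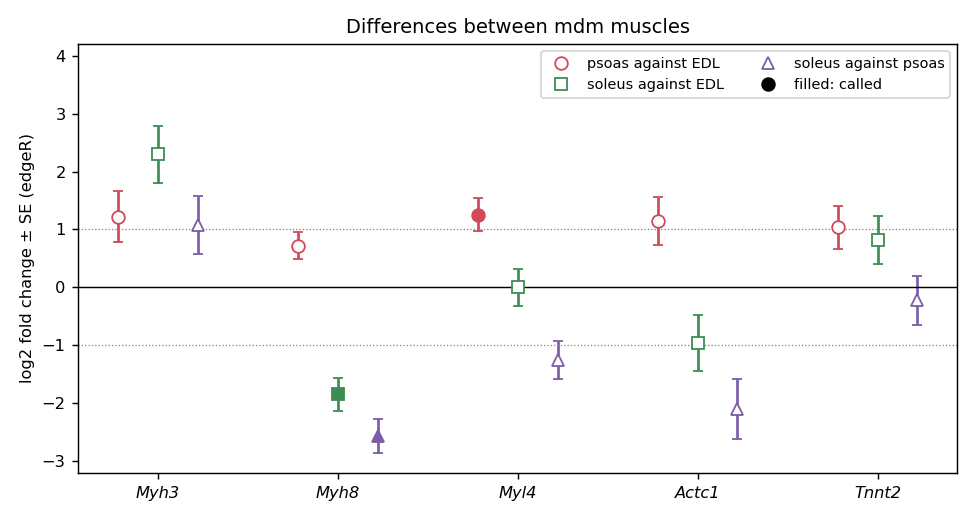
Log2 fold changes ± SE from edgeR for the 5 genes in psoas against EDL, soleus against EDL and soleus against psoas (5, 5 and 3 libraries of EDL, psoas and soleus), with filled symbols for called differences and dotted lines at a log2 fold change of 1 in either direction. The filled symbols are Myl4 in psoas against EDL (1.26) and Myh8 in soleus against EDL (-1.85) and against psoas (-2.56).

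Levels of different genes can be compared per length, as CPM per kilobase of annotated exon. CPM is the count scaled to the library total after that total was adjusted by edgeR's TMM normalization. On this scale the order of the means in EDL was Myh3 (218), Actc1 (145), Myh8 (125), Myl4 (28.6) and Tnnt2 (7.27), and in psoas it was the same order at 506, 322, 205, 68.5 and 14.9. The order of the first 3 depended on the length used, because the annotated exons of Myh8 cover 11772 bases and its longest transcript 6149. Per kilobase of the longest transcript, a measure added after the values were seen, the EDL means were 238 for Myh8, 218 for Myh3 and 160 for Actc1, and the psoas means 508 for Myh3, 392 for Myh8 and 354 for Actc1. The ranges of Myh3, Actc1 and Myh8 overlapped within both muscles by either length. In soleus Myh3 reached 1068 CPM per kilobase of exon, and its lowest library (484) was above the highest of Actc1 (117), which also held per longest transcript (487 against 129). Soleus Myh8 (mean 34.7) and Myl4 (28.8) had touching ranges per kilobase of exon, but per longest transcript Myh8 (59.7 to 70.6) was apart from Myl4 (38.2 to 44.5). Tnnt2 had the lowest mean in soleus by either length (12.8 and 29.8).

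The share of each developmental isoform in its own protein family was computed within each library, per base of exon, so that it does not depend on scaling between libraries. Heavy chains were summed over the sarcomeric myosins, Myl4 with Myl1 and Myl3, Actc1 with Acta1, and Tnnt2 with Tnnt1 and Tnnt3. Myh3 made up 4.26, 1.341, 0.685, 2.45 and 3.88% of heavy chain in EDL. It made up 21.8, 26.3, 8.54, 5.49 and 9.05% in psoas, and 40.3, 28.3 and 21.9% in soleus. The mean share was 2.52% ± 1.55 in EDL (SD, n = 5), 14.2% ± 9.21 in psoas (SD, n = 5) and 30.1% ± 9.32 in soleus (SD, n = 3).

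The shares of Myh8, Myl4 and Actc1 were highest on average in psoas, and that of Tnnt2 was nearly equal in psoas and soleus. Myh8 made up 1.32% ± 0.294 of heavy chain in EDL, 5.45% ± 1.84 in psoas and 1.08% ± 0.283 in soleus (SD, n = 5, 5 and 3). Myl4 was 0.79% ± 0.259 of its family in EDL, 4.24% ± 1.99 in psoas and 1.24% ± 0.0703 in soleus. Actc1 was 0.667% ± 0.194, 2.64% ± 1.05 and 0.501% ± 0.201 of striated actin in the same order. Tnnt2 was 0.0909% ± 0.0339 of troponin T in EDL, and its psoas (0.635% ± 0.324) and soleus (0.634% ± 0.39) means were alike.

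All 5 shares were higher in every psoas library than in every EDL library, with differences of means between 0.544 percentage points for Tnnt2 and 11.7 for Myh3. A two-sided exact permutation test gave p = 0.007937 for each, the smallest p that 5 libraries against 5 allow, and 0.0238 after Benjamini-Hochberg adjustment over the 15 share tests. With the libraries paired by replicate number, the exact permutation test gave adjusted p = 0.188 for each, where 5 pairs allow no unadjusted p under 0.0625. The libraries of replicate 1 came from mice of different ages. With the libraries of codes T4 to T6 alone, the exact test gave an adjusted p of 0.0779. Neither setting had enough libraries to reach an adjusted p under 0.05. The family members that share the denominator also differed between these muscles: Myh4, Myl1 and Tnnt3 were called lower in psoas. Acta1 (log2 fold change -0.99, adjusted p 0.0493, edgeR) and Myh1 (-1.30, adjusted p 0.0195) were not called but had lower means in psoas. A lower denominator raises a share without a change in the gene itself. By counts, none of the 5 genes separated psoas from EDL without overlap. Shares of other genes were not computed as a background.

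In soleus, the shares of Myh3, Myl4 and Tnnt2 were higher than in EDL without overlap, by 27.6, 0.451 and 0.543 percentage points. Each had an exact permutation p of 0.03571, the smallest that 3 libraries against 5 allow, and an adjusted p of 0.0487. The denominators differed here as well: Myh1, Myh4 and Tnnt3 were called lower in soleus than in EDL, and Myl3 higher. The counts of Myl4 itself had a log2 fold change of 0.01 (adjusted p 0.995, edgeR), with Myl1 at -0.95 (adjusted p 0.11). For the counts of Tnnt2 it was 0.82 (adjusted p 0.38), with overlap. The shares of Myh8 (1.08% against 1.32%, exact p = 0.2143) and Actc1 (0.501% against 0.667%, exact p = 0.25) did not differ beyond their spread between soleus and EDL, although the normalized count of Myh8 was called lower. Against psoas, soleus had lower shares of Myh8, Myl4 and Actc1 without overlap (differences of -4.362, -3.004 and -2.143 percentage points, exact p = 0.03571 each), while Myh3 (exact p = 0.07143) and Tnnt2 (exact p = 1) overlapped. Divided by the length of the longest transcript in place of all annotated exons, the mean Myh8 share became 2.37, 9.23 and 1.78% in EDL, psoas and soleus, against 2.364, 12.62 and 25.96% for Myh3, and that of Tnnt2 became 0.143, 0.982 and 0.822%.

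**Figure D4:**
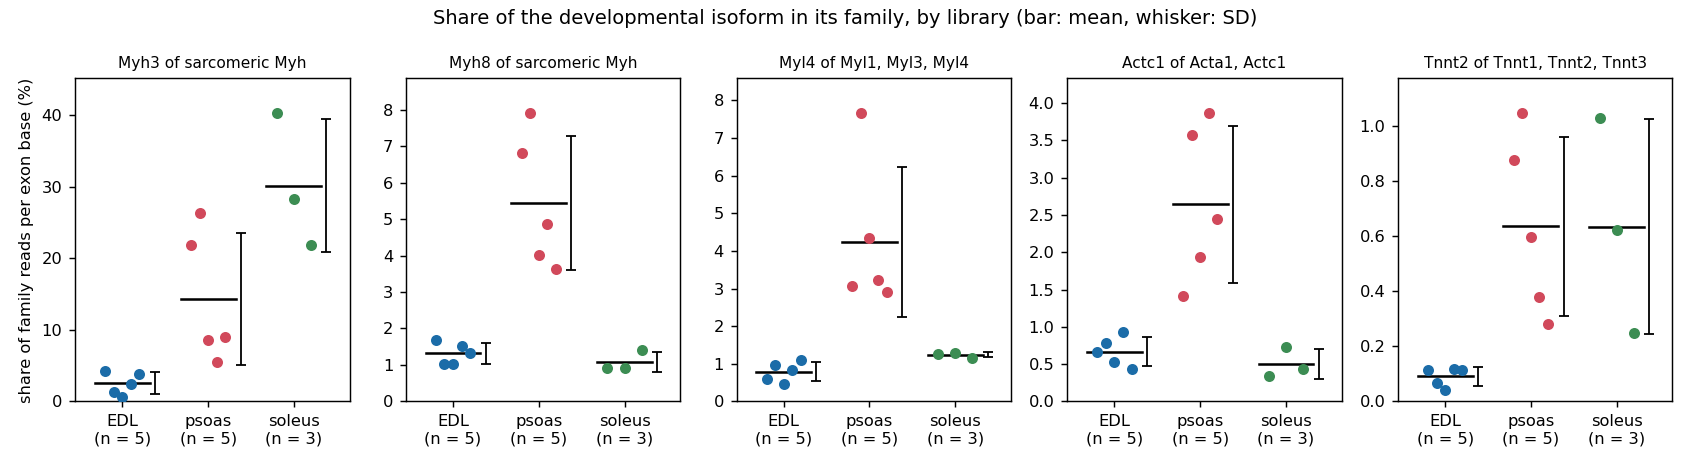
Share (%) of each developmental isoform in the summed counts per exon base of its family, in each library of *mdm* EDL, psoas and soleus; points are libraries, bars are means and whiskers SD. Every psoas point lies above every EDL point in all 5 panels, and the Myh3 share reaches 40.3% in soleus.

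The genes varied to different extents between libraries of 1 muscle. The SD within muscles of log2 CPM was 0.776 for Myh3, 0.771 for Actc1, 0.681 for Tnnt2, 0.466 for Myl4 and 0.323 for Myh8, against a median of 0.455 over all genes tested. Myh3 and Actc1 were more variable than 81.9% and 81.6% of the genes tested, and Myh8 more than 24.8%. Psoas and EDL libraries were also paired by replicate number, although those of number 1 came from different mice (29 and 38 days old). In these 5 pairs, Myh8 and Myl4 were higher in psoas in all 5, by 0.23 to 1.35 and 0.32 to 1.88 on the log2 CPM scale. Myh3, Actc1 and Tnnt2 were each higher in 4 of 5, and the exceptions were -0.0039 for Myh3 in pair 5, -0.09 for Actc1 in pair 1 and -0.34 for Tnnt2 in pair 5.

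The label codes allowed the muscles to be compared within T4, T5 and T6. Psoas was above EDL for all 5 genes in each of the 3 codes, with log2 CPM differences between 0.26 for Tnnt2 in T6 and 2.12 for Myh3 in T5. Soleus was above EDL for Myh3 by 2.94 in T4 and 1.19 in T6, and below EDL for Myh8 by -1.87 and -1.65. Tnnt2 in soleus against EDL had opposite signs, 1.53 in T4 and -1.01 in T6. T4 and T6 held 1 or 2 libraries of each muscle, T5 held 1 of EDL and of psoas, and T1 and T3 held 1 library each.

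Likeness over the 13 libraries was measured as Pearson's r of log2 CPM, as a description, since libraries of 1 muscle and possibly of 1 mouse are not independent. Among the 5 genes, Myh3 was most like Tnnt2 (r = 0.706) and was opposed to Myh8 (r = -0.374). Actc1 was like Myl4 (r = 0.704) and Myh8 (r = 0.655). Of the other 17068 genes, those most like each gene were Prrxl1, Csnk1g3 and Unc13b for Myh3 (r between 0.935 and 0.966), Gfra1, Gm9920 and Pde4b for Myh8 (0.871 to 0.905), Ninl, Ces2g and Myog for Myl4 (0.886 to 0.891), Smad3, Frmpd1 and Capn6 for Actc1 (0.870 to 0.874), and Ncam1, Gjd4 and Plxnb2 for Tnnt2 (0.874 to 0.909). Myog is the differentiation factor myogenin and Ncam1 the cell adhesion molecule of developing and denervated fibres.

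Other genes of developing and regenerating fibres were taken as lists, chosen with earlier results of these data known. Of all genes tested, 2.43% were called higher and 2.5% lower in psoas against EDL. In soleus against EDL these shares were 0.533% and 0.445%. Of 10 genes for immature or remodelling fibres, 1 was higher and 1 lower in both psoas and soleus against EDL. Myl6b, an alkali light chain of slow and developing muscle, had normalized counts between 19.9 and 67.6 in EDL, 235 and 413 in psoas and 201 and 541 in soleus. It was called higher in psoas (log2 fold change 2.70, adjusted p 0.000665) and in soleus (3.04, adjusted p 0.000515, edgeR), and kept both calls in all alternative fits. Mustn1, a nuclear protein of the musculoskeletal system, was called lower in psoas (-1.53, adjusted p 0.00104) and soleus (-2.40, adjusted p 0.000515, edgeR). Its calls were likewise kept in all alternative fits. The median over the list was -0.34 in psoas and 0.06 in soleus against EDL.

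Among 10 myogenic and fusion genes, 3 were called higher and none lower in psoas against EDL, beside 2.43% and 2.5% of all genes. The median log2 fold change of the list was 1.15. Myod1, the myogenic determination factor, was between 98.2 and 193 normalized counts in EDL and between 297 and 546 in psoas (log2 fold change 1.58, adjusted p 0.00137, edgeR), and its call held in every alternative fit. Mymk, the fusion protein myomaker (1.61), and Cdkn1a, the cell cycle inhibitor p21 (1.47), were called as well. The Mymk call was lost without any 1 of EDL replicates 1, 3, 4 and 5, psoas replicates 2, 3 and 4 or soleus replicate 1 and with age as a covariate, and that of Cdkn1a without EDL replicate 3 or 5 or psoas replicate 1. No gene of this list was called in soleus against EDL, where its median was -0.07.

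Of 8 receptors, channels and related genes of fetal, denervated or adult fibres, 3 were called higher in psoas against EDL, beside 2.43% of all genes. The adult subunit gene Chrne was called lower, beside 2.5% of all genes. Chrng, the fetal gamma subunit of the acetylcholine receptor, had a log2 fold change of 1.32, Chrnd, the delta subunit, 1.25, and Runx1, a transcription factor induced by denervation, 1.39. Chrne, the adult epsilon subunit that replaces Chrng after birth, fell from between 41.9 and 98.2 normalized counts in EDL to between 6.41 and 23.2 in psoas (log2 fold change -2.35, adjusted p 0.00452, edgeR). The Chrng call held only when psoas replicate 1 or soleus replicate 2 or 3 was the library left out and was lost with the replicate block (adjusted p 0.0115, edgeR) and with no filter on low counts. The Chrnd call was lost without 8 of the libraries (EDL 1, 3, 4 or 5, or psoas 2 to 5), that of Runx1 without 10 (all but EDL 2, soleus 2 and soleus 3), and that of Chrne without EDL 3, psoas 1 or psoas 2. With age as a covariate Runx1 and Chrne were not called, nor was Chrne when the label code was fitted. No gene of this list was called in soleus against EDL.

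Of 5 fetal growth genes, Igf2, the fetal insulin-like growth factor, and Dlk1, a Notch-related protein of fetal tissue, were called higher in psoas against EDL. Over all genes tested, 2.43% were called higher there. Igf2 was between 1326 and 3115 normalized counts in EDL and between 5821 and 7967 in psoas (log2 fold change 1.84). Dlk1 was between 2.71 and 17.9 in EDL and 68.7 and 138 in psoas (3.84), with soleus between 2.14 and 17.2. H19, Igf2bp2 and Meg3 were not called, and none of the 5 was called in soleus against EDL. In soleus against psoas, where 0.0762% of all genes tested were called, no gene of these lists was called. Without overlap, 4 of the 10 myogenic and fusion genes and 3 of the 5 fetal growth genes were lower in soleus. So were 2 of the 8 receptors, channels and related genes and 1 of the 10 genes for immature fibres. Over all genes tested, 5.19% were lower without overlap, and none of the listed genes was higher without overlap.

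**Figure D5:**
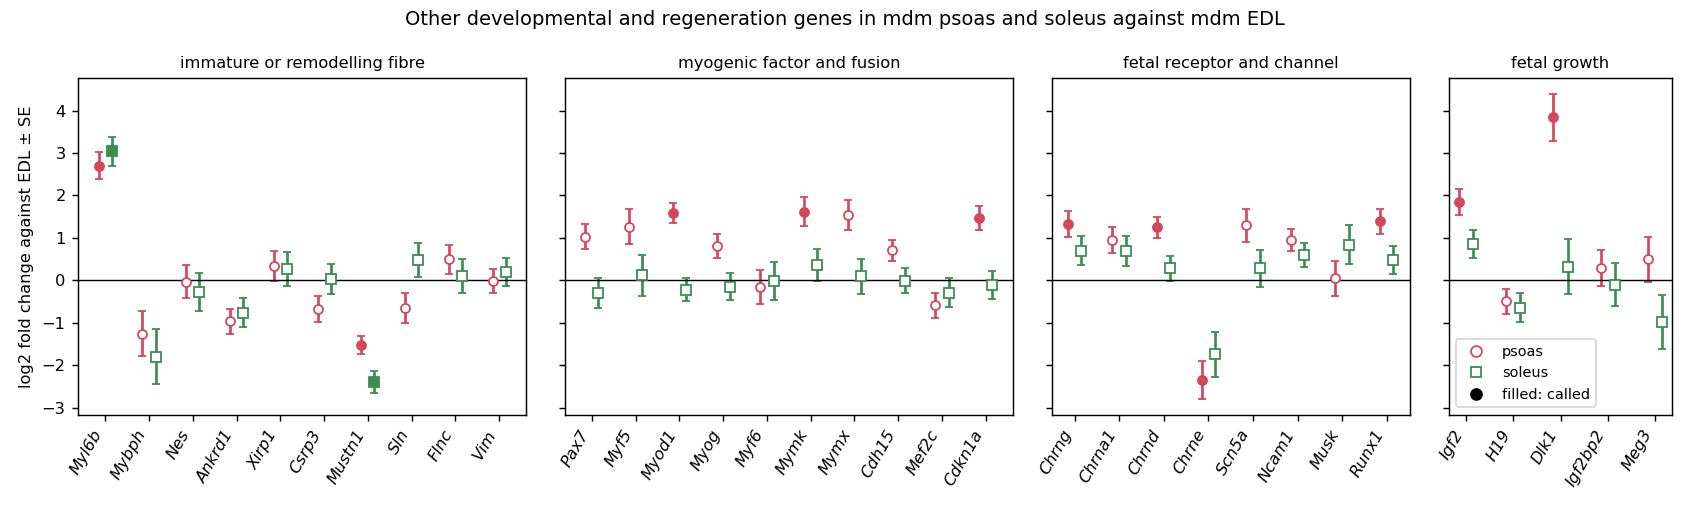
Log2 fold changes ± SE (edgeR) of psoas (circles) and soleus (squares) against EDL, all *mdm*, for the 33 genes of the 4 lists on immature fibres, myogenesis and fusion, fetal receptors and channels, and fetal growth; filled symbols are called. Myl6b and Mustn1 are filled in both muscles, and all other filled symbols belong to psoas.

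Beside 2.5% of all genes called lower and 2.43% higher in psoas against EDL, 3 of the 9 adult counterparts were called lower and none higher. They were Myh4 (log2 fold change -4.18), Tnnt3 (-1.70) and Myl1 (-1.16), while Myh7 (0.38) and Myl3 (0.02) had values just above 0. The Myl1 call (adjusted p 0.0088, edgeR) held in 1 of 13 fits with a library left out, the fit without EDL replicate 1, and was lost with the replicate block (0.0145), with age as a covariate, with only these muscles fitted and by limma. In soleus, Myh1 (-3.80), Myh4 (-5.44) and Tnnt3 (-3.16) were called lower than in EDL and Myl3, the slow light chain, higher (4.92). The Myh4 call in soleus was lost without EDL replicate 2 or 3 or soleus replicate 1 or 2, that of Myh1 without soleus replicate 1 or 2, and that of Myl3 held only without EDL replicate 5 or psoas replicate 3 or 4. The Myh4 and Myl3 calls in soleus were also lost with the label code or age in the fit, and that of Myh4 with only these muscles fitted. Myh2, Myh7, Acta1 and Tnnt1 were not called in either. Even so, Myh7 (log2 fold change 4.89, adjusted p 0.0261, edgeR) and Tnnt1 (2.99, adjusted p 0.0178) were higher in soleus than in EDL without overlap. Of all genes tested, 5.33% were separate in that direction. Myh13, the extraocular heavy chain, was lower in soleus than in EDL (-1.74). The Myh13 call was lost without EDL replicate 2 or 3 or any 1 soleus library. It was also lost with the label code or age in the fit and with only these muscles fitted.

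Markers of other cells that could carry these transcripts were set beside them. Of 7 heart genes, the tables analysed held 1, Tnni3, cardiac troponin I, at 1.83 to 12.9 normalized counts. The others were looked up and were absent from these tables, so their levels are not known here. Of 4 smooth muscle genes, 1 was called higher in psoas against EDL, beside 2.43% of all genes tested. This was Acta2 (log2 fold change 1.42, lost without EDL replicate 3 or 5 or psoas replicate 1). The summed counts of the 4 were between 1280 and 2926 in EDL, 2359 and 9669 in psoas, and 2254 and 4004 in soleus. Psoas replicate 1 stood apart with 5061 normalized counts of Myh11, and was the highest psoas library for Myh3 and Myh8 but not for Myl4, Actc1 or Tnnt2. Of the 3 muscle spindle genes in the tables, Myh6 was between 23216 and 36022 in soleus and at most 4465 in the other muscles, although 15.3% of the 75-base words of Myh7 are shared with Myh6. Etv4, another of the 3, was called lower in psoas than in EDL (-1.41), beside 2.5% of all genes tested. The Etv4 call was lost without EDL replicate 2 or 3 or any 1 of psoas replicates 1 to 3, or when the label code was fitted. Satellite cell markers (3 in the tables) summed to between 87.9 and 155 in EDL, 163 and 356 in psoas and 67.1 and 174 in soleus, and macrophage markers (4) to between 908 and 2822, 1389 and 5388, and 1473 and 1776. No gene of these last lists was called, and the part of these cells in the levels of the 5 genes was not tested.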

How the data were processed

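Bulk RNA-Seq of 13 *mdm* muscles was analysed. Per the labels and the study's methods, the authors extracted total RNA, prepared stranded Illumina TruSeq total RNA libraries and sequenced paired-end reads of 75 bases. The submitters' processing notes name FastQC, Trimmomatic 0.32, TopHat2 2.1.1, BWA and Picard, and the builds GRCm38.p4 and mm10. The deposited files give raw counts per Ensembl gene, summing to between 9114176 and 48835209 per library, and a normalized signal, which is the count divided by a DESeq2 size factor of the authors (0.502 to 2.42). How reads matching several genes were counted is not given in the sources used here. Sequencing runs are not in the labels.

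Gene symbols came from GENCODE M21 (17833 of 17924 genes matched). Raw counts were tested with edgeR 4.0.16 (quasi-likelihood test, TMM, R 4.3.3) in 1 fit of all 13 libraries, for genes that reached 10 normalized counts in 3 or more libraries, with Benjamini-Hochberg adjustment over all 17069 genes tested. A call required adjusted p under 0.01 and a log2 fold change over 1 in size. Log2 CPM used a prior count of 2. Shares divided raw counts by exon length and were compared with exact permutation tests (scipy 1.17.1), two-sided, at a limit of 0.05. The 5 genes and the gene lists were chosen with earlier results of these data known. Of each list other than the slow- and fast-fibre markers, called genes were named, at most 4 per comparison by smallest adjusted p. All adult counterparts were named too, with the 3 genes most correlated with each of the 5.

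The replicate numbers were taken as pairing EDL and psoas, which the labels do not state. Deviations from the muscle means correlated across genes in all 5 pairs (r between 0.289 and 0.407). Libraries with unlike replicate numbers were not compared, so these values cannot show that a pair shares a mouse. The highest r was that of replicate 1, whose EDL and psoas libraries came from mice of different ages and so not from 1 mouse. Soleus was not taken as paired (r between -0.302 and 0.421), and its mice differed in age from those of both other muscles at each number. No replicates were near-identical. The alternatives were DESeq2 1.42.0, limma 3.58.1 with a pseudocount of 1, other size factors, no filter, label code, age or replicate number in the fit, fewer libraries and other lengths. The procedures were tested on simulated data. P-values measure the spread between libraries, and some mice gave several muscles.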

Additional observations from a re-analysis of the deposited data

How the results depend on the processing

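For each log2 fold change, 9 alternative fits and 13 fits with 1 library left out were run, and for each share 4 alternatives and 13 left-out libraries. The called difference of Myl4 in psoas against EDL was lost with age as a covariate and with only those muscles in the fit, where 0 of the 5 genes were called. DESeq2's Wald test called 2 of the 5 in soleus against EDL and 2 in soleus against psoas, by adding Myh3 and Actc1, and the fit of only soleus and psoas called 0. With the replicate number as a block, 0 of the 5 were called in both soleus comparisons (Myh8 adjusted p 0.0243 against EDL and 0.0493 against psoas, edgeR), for which the numbers do not pair the libraries and where Myh1, Tnnt3 and Myh13 in soleus against EDL were also lost (0.0126, 0.0185 and 0.0256), and the block changed no call of the 5 in psoas against EDL. Leaving out 1 library gave 0 to 1 called in each comparison.

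Over all genes, psoas against EDL had 841 calls in the fit reported, 1586 by DESeq2, 510 with age, 557 with those muscles alone, 1267 with the replicate block and 317 to 802 with 1 library left out. Soleus against EDL had 167, with 633 by DESeq2, 86 with the label code, 49 with age and 19 to 182 with 1 library left out. Soleus against psoas had 13, with 171 by DESeq2, 20 by limma, 6 with the label code, 8 with those muscles alone, 1 with the replicate block and 3 to 21 with 1 library left out. Single log2 fold changes that turned sign were Myl4 in soleus against EDL (0.01 as reported, -0.0159 with DESeq2 size factors, -0.0158 by DESeq2, -0.235 with the label code, -0.1552 to 0.2202 with 1 library left out) and Tnnt2 in soleus against psoas (-0.882 to 0.182 with 1 library left out). The cause was not tested.

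The 5 shares called in psoas against EDL stayed past the threshold with any 1 library left out (adjusted p at most 0.0476, exact), but not with codes T4 to T6 alone or within replicate blocks. The 6 soleus shares past it as reported passed in none of these. The failures were fixed beforehand, since with so few libraries no exact adjusted p in these cases could have fallen under 0.05. They therefore say nothing about the strength of the differences. Directions held except for Tnnt2 in soleus against psoas. With codes T4 to T6 alone (exact permutation, adjusted p 0.0779), psoas minus EDL was 10.3 percentage points for Myh3, 3.88 for Myh8, 3.70 for Myl4, 2.29 for Actc1 and 0.490 for Tnnt2, soleus minus EDL was 28.1 for Myh3, 0.399 for Myl4 and 0.548 for Tnnt2, and soleus minus psoas was -4.02 for Myh8, -3.30 for Myl4, -2.45 for Actc1 and, with the sign turned, 0.0582 for Tnnt2. Within replicate blocks, psoas minus EDL was 11.7, 4.13, 3.45, 1.98 and 0.544 for Myh3, Myh8, Myl4, Actc1 and Tnnt2 (adjusted p 0.188, exact), soleus minus EDL was 28.0 for Myh3, 0.566 for Myl4 and 0.559 for Tnnt2, and soleus minus psoas was -5.16 for Myh8, -3.79 for Myl4 and -1.80 for Actc1 (adjusted p 0.288, exact). With 1 library left out, soleus minus EDL ranged from 22.6 to 31.7 for Myh3, 0.371 to 0.526 for Myl4 and 0.345 to 0.735 for Tnnt2, and soleus minus psoas from -4.82 to -3.75 for Myh8, -3.34 to -2.15 for Myl4, -2.45 to -1.84 for Actc1 and -0.1997 to 0.191 for Tnnt2. An exact test on fewer libraries allows only larger p-values. Depth did not limit the 5 genes, whose counts were at least 278, whereas having 3 soleus libraries limits every comparison with that muscle.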

Other observations

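Age was fitted beside muscle in 1 of the alternative edgeR fits, with mice from 29 to 42 days old. Per day of age, the log2 level of Myh3 had a slope of -0.127 (SE 0.0544), with an unadjusted p of 0.0355 and an adjusted p of 0.468 by edgeR's quasi-likelihood test. Tnnt2 had a slope of -0.08 and Myh8 of -0.02, whereas Actc1 had 0.13 and Myl4 0.05, with adjusted p between 0.578 and 0.864 (edgeR). No gene passed an adjusted p of 0.01 for age, and 1689 of 17069 had an unadjusted p under 0.05. In soleus, the mice of 33, 36 and 38 days had 167407, 111947 and 50001 normalized counts of Myh3, and the psoas library of the youngest mouse, at 29 days, had the highest Myh3 of its muscle (86941) and the lowest Actc1 (2385). Age was unevenly spread over the muscles and label codes, and its part in the differences between muscles was not tested beyond this fit.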
